A study of Mus musculus with 23 samples.

Results

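The 12 male arrays of a study of Nr1d1 in the mouse nucleus accumbens were compared, 6 labelled control against 6 labelled Nr1d1 knockdown, out of 23 arrays in all. They were chosen by their titles alone, so no measured value entered the choice. The other 11 arrays came from females (5 control, 6 knockdown) and serve here to set the male differences beside an independent set. They also enter the limma fit, so its male SEs, intervals and p-values rest on a spread pooled over both sexes. All 12 males were C57BL/6J mice (the strain tag gives C57BL/6) of about 15 weeks, and each group had received an adeno-associated virus in the nucleus accumbens about 5 weeks before the tissue was micropunched. The virus carried a short hairpin RNA against Nr1d1 in the knockdown group and a scrambled sequence in the controls, so that surgery and virus were common to both. The sources used here give no promoter for the hairpin, no serotype, no share of transduced cells and no hour of collection. The protocol text attached to the male samples also mentions litters and a postpartum day, which was not used. The submitters call the samples biological replicates.

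Nr1d1 encodes REV-ERBα, a nuclear receptor that binds response elements shared with the ROR receptors and represses transcription through a corepressor complex that holds HDAC3. In the circadian clock, ARNTL (BMAL1) pairs with CLOCK or NPAS2 and drives E-box genes, among them the Per and Cry repressors and Nr1d1 itself, while REV-ERBα in turn represses Arntl. The nucleus accumbens is the ventral part of the striatum, made up mostly of medium spiny projection neurons that receive dopamine and cortical glutamate.

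Promoter sequence is shown for 3 genes of the clock and REV-ERB target lists, Per1, Ciart and Fabp7, all 3 with a male difference above 0. Ccl2, the REV-ERB target of smallest p, had a difference below 0 and no promoter window. Each sequence is the 250 bases before the gene's first listed start, read on the gene's strand 5′ to 3′ from the RefSeq table of GRCm38.p6, with capitals marking CACGTG (the E-box) or AGGTCA and its reverse complement TGACCT (the core of the REV-ERB and ROR element).
Per1, chr11:69098699-69098948, plus strand: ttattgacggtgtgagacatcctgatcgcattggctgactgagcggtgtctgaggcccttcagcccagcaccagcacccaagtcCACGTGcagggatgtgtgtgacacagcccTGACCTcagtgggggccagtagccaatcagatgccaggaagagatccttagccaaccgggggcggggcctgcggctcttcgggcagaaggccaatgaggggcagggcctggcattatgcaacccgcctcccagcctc
Ciart, chr3:95882229-95882478, minus strand: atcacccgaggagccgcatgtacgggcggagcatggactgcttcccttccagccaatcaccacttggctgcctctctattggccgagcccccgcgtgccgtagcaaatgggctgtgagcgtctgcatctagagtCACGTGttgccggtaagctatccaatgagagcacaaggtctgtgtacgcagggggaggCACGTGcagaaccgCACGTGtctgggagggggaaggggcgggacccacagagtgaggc
Fabp7, chr10:57784673-57784922, plus strand: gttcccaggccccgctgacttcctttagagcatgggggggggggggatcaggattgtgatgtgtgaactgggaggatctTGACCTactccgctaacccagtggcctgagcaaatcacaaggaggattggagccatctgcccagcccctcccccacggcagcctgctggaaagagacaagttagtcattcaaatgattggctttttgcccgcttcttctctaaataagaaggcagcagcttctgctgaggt
The Per1 window held 1 E-box and 1 AGGTCA core, the Ciart window 3 E-boxes, and the Fabp7 window 1 AGGTCA core. Both strands were searched. Over all 32851 promoter windows of this length, 6.02% held CACGTG and 14% held AGGTCA, while the full REV-ERB and ROR element (the core with its A/T-rich flank) was in 0.177%. Of the 35 clock and REV-ERB list genes sought, 29 had a window. AGGTCA was found for 6 of them (Clock, Fabp7, Nampt, Nfil3, Nr1d2 and Per1), CACGTG for 6 (Bhlhe41, Ciart, Cry1, Fkbp5, Per1 and Tef) and the full element for 0. A gene with several listed starts was counted if any of its windows held the motif. For Clock that was a later start and not the first. These counts are per gene, so they are not directly comparable with the shares per window. These matches describe the letters in the window, and binding was not measured. Of the AGGTCA genes, Clock, Fabp7 and Per1 had a male difference above 0, and Nampt, Nfil3 and Nr1d2 below 0. The 6 CACGTG genes all had one above 0. Whether a motif goes with a difference was not tested. Sequence after the start, or more than 250 bases before it, was not searched, so a count of 0 holds for the windows alone.

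The targeted transcript was not lower in the arrays labelled knockdown. On the log2 intensity scale used for all levels and differences below, Nr1d1 read 9.43, 9.42, 9.84, 9.52, 9.85 and 9.47 in controls 1 to 6, and 9.76, 9.48, 9.66, 9.44, 9.65 and 9.47 in knockdown arrays 1 to 6. The ranges overlap, and 3 of the 6 knockdown arrays were below the control mean. The control mean was 9.59 ± 0.20 (SD, n = 6) and that of the knockdown arrays 9.58 ± 0.13 (SD, n = 6), a difference of -0.01 with a standard error (SE) of 0.09. The 95% confidence interval of -0.19 to 0.17 corresponds to a change between -12.3% and 12.1%, so a reduction beyond 12.3% lies outside it. The difference was -0.09 without controls 1 and 2 and -0.08 without controls 1 and 6. The limma adjusted p was 0.997, and a two-sided exact permutation test over the 924 assignments of 6 against 6 arrays gave p = 0.926, where the smallest p possible was 0.00216. The sources used here do not say which part of the transcript the probe set (17268884) covers or where the hairpin cuts. The groups are therefore called control arrays and arrays labelled knockdown, or knockdown arrays for short, and no difference below is tied to a measured loss of Nr1d1. In bulk tissue, fewer cells of a type and less RNA per cell cannot be told apart.

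No probe set differed between the 2 labels past the threshold. At a Benjamini-Hochberg adjusted p under 0.05 in limma, 0 of 41345 probe sets (0%) were called, and 1948 (4.71%) had an unadjusted p under 0.05. Among the 22180 genes that have a probe set with a single symbol, 459 were higher (2.07%) and 420 lower (1.89%) at an unadjusted p under 0.05, 3.96% in all, and the lowest adjusted p was 0.767. The typical difference was small, with a median absolute value of 0.0467 and a median SE of 0.07. The 95% interval lay within 0.5 on either side of 0 for 98.7% of genes and within 1 for 99.9%, so at this precision a change of more than 2-fold was outside the interval for nearly every gene. A difference above 0.5 in size was estimated for 9 genes and above 1 for 1, Slc17a7. Of all named genes, 51.4% had a difference above 0, 9.24% had all 6 knockdown arrays on one side of the control mean, and 0.0947% (21 genes, 14 of them higher) had ranges that did not overlap between the groups. List counts below are read against these shares, and female counts against the 50.1% of named genes whose female difference was above 0.

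**Figure D1:**
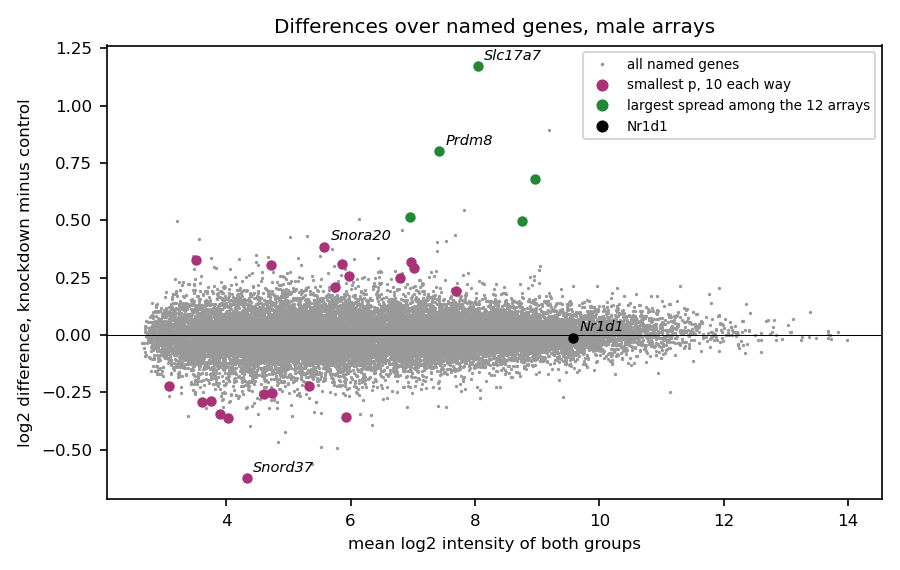
Each dot is a named gene, placed by the mean log2 intensity of both groups (x) and the log2 difference, knockdown minus control (y), with coloured dots for Nr1d1, the 10 genes of smallest p in each direction and the 5 genes of largest spread among the 12 arrays. Nr1d1 lies at -0.01, and the highest dot is Slc17a7 at 1.17, a gene whose SE is 0.85.

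The 12 arrays differed among themselves mainly in genes of cortical excitatory neurons, and this spread ran through both groups. Slc17a7, the vesicular glutamate transporter of cortical projection neurons, read 10.34, 10.18, 5.43, 8.01, 6.17 and 4.64 in controls 1 to 6 and 8.98, 8.72, 9.97, 9.80, 8.96 and 5.37 in the knockdown arrays. Controls 1 and 2 were therefore the highest of all and control 6 the lowest, and among the knockdown arrays only replicate 6 was low. The other genes of largest spread were Cck (a neuropeptide), Neurod6 (a transcription factor of cortical excitatory neurons), Prdm8 (a transcriptional repressor) and Vxn, and the same 5 led the first principal component, which held 23.7% of the variance among the male arrays. Its scores were 14.87 and 15.55 in controls 1 and 2, between -17.51 and -6.99 in the other 4 controls, and between -11.66 and 12.02 in the knockdown arrays. The mean of the 14 measured cortical excitatory neuron genes was 8.58 and 8.25 in controls 1 and 2 and between 7.03 and 7.42 in the other controls, against 7.13 to 8.20 in the knockdown arrays. Of those 14 genes, 10 had a difference above 0, 0 of them with an unadjusted p under 0.05, and after Slc17a7 and Neurod6 the largest were Tbr1 and Neurod2, at 0.46 (SE 0.41) and 0.40 (SE 0.39), both named after their values were seen. The Slc17a7 difference was 1.17 (SE 0.85), between 0.61 and 1.82 when 1 array was left out, 2.57 without controls 1 and 2, and 0.45 with the cortical mean as a covariate.

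Levels of accumbens markers overlapped between the groups, and a measure of signal over background was not used here. Drd1 and Drd2, the dopamine receptors of the direct and indirect pathway neurons, read 9.82 to 10.23 and 10.80 to 11.52 in controls, and 9.87 to 10.23 and 11.15 to 11.48 in knockdown arrays. Penk, the enkephalin precursor, read 12.41 to 12.79 and 12.64 to 12.78. The mean of the 21 measured medium spiny neuron genes was 9.95 to 10.29 in controls and 10.10 to 10.35 in knockdown arrays.

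The receptors that share the REV-ERB element showed no difference past the threshold. Of the 4 measured, 3 had values below 0. Rora, an activator that competes with REV-ERBα, read a lowest, median and highest level of 7.83, 7.96 and 8.17 in controls and 7.81, 7.87 and 7.94 in knockdown arrays. All 6 knockdown arrays lay below the control mean while the ranges overlapped, and the difference was -0.10 (SE 0.06, unadjusted p = 0.0996, limma adjusted p = 0.996). Nr1d2, which encodes REV-ERBβ, stood at -0.07 (SE 0.07) and Rorb at 0.03 (SE 0.09).

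The clock activators were near 0, and of them Arntl, Clock and Npas2 are also on the list of genes that REV-ERBα is known to repress. All 5 measured had a difference above 0 with a median of 0.025, but for Arntl2, Ncoa1, Clock and Arntl it was at most 0.03, within 1 SE. The count was 4 of 5 without controls 1 and 6, without controls 1 and 2 and with the cortical covariate, and 3 of 5 in females. Arntl, the direct target most often used to read REV-ERBα activity, read 8.98, 9.18 and 9.25 (lowest, median, highest) in controls and 8.96, 9.20 and 9.32 in knockdown arrays, which overlap throughout, with a difference of 0.03 (SE 0.07) and a 95% interval of -0.11 to 0.17. Npas2, the CLOCK paralogue of the forebrain, was higher by 0.14 (SE 0.09, unadjusted p = 0.135), from 10.43 ± 0.23 (SD, n = 6) to 10.57 ± 0.15 (SD, n = 6). The female differences for Npas2 and Arntl were 0.13 and 0.06.

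The 7 measured clock repressors all had differences above 0, with a median of 0.08, beside 51.4% of all genes and a median of 0.0033. The count was 7 of 7 without controls 1 and 6, and 6 of 7 without controls 1 and 2 or with the cortical covariate. In females 4 of 7 were above 0, with a median of 0.02. Per1 and Ciart had an unadjusted p under 0.05, and 0 of the 7 passed the adjusted threshold. Per1, the period gene with the E-box shown above, read 9.45, 9.52, 9.39, 9.01, 9.34 and 9.17 in controls and 9.41, 9.44, 9.65, 9.48, 9.56 and 9.35 in knockdown arrays. Control 4 was the lowest and 6 of 6 knockdown arrays were above the control mean, with overlapping ranges. The Per1 difference was 0.17 (SE 0.07, 95% interval 0.02 to 0.32, a change between 1.47% and 24.5%, unadjusted p = 0.027, limma adjusted p = 0.996), 0.13 with the cortical mean as covariate and 0.25 without controls 1 and 2. Ciart (CHRONO), a repressor of ARNTL and CLOCK, read 7.39, 7.72 and 7.91 as lowest, median and highest in controls and 7.62, 7.86 and 7.96 in knockdown arrays, where 5 of 6 were above the control mean. Its difference was 0.17 (SE 0.08, 95% interval 0.01 to 0.32, unadjusted p = 0.0419, limma adjusted p = 0.996) and the female one was -0.11 (SE 0.08). Per2 had no probe set of its own symbol, and the other 5, Per3 (0.08), Cry1 (0.06), Cry2 (0.10), Bhlhe40 (0.01) and Bhlhe41 (0.07), had p of 0.0917 or more. The mean of the 7 was 8.29 to 8.38 in controls and 8.39 to 8.48 in knockdown arrays, so that the lowest knockdown array lay just above the highest control, by 0.01. This is a description, since the list was chosen with these values known.

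**Figure D2:**
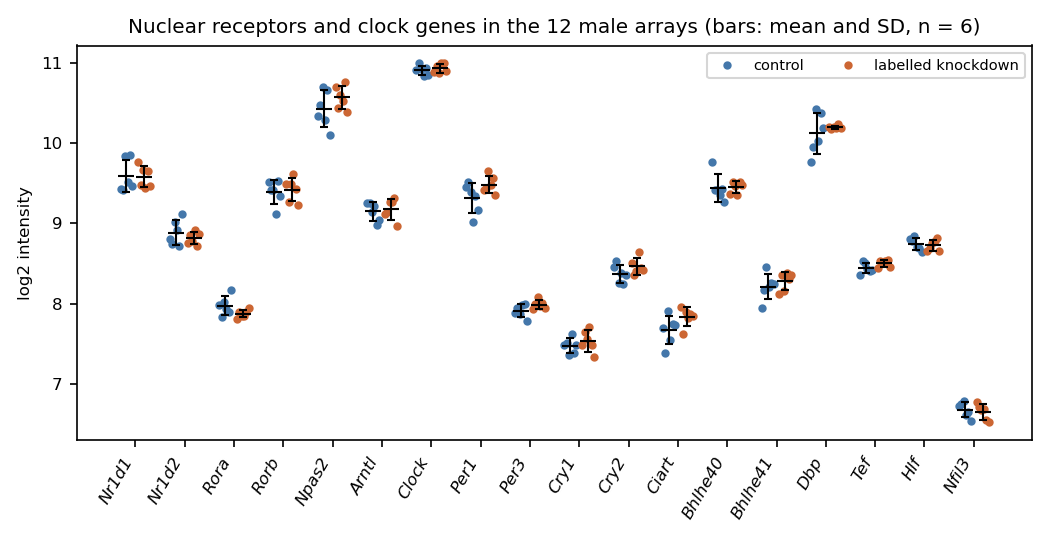
Log2 intensity (y) of the receptors and clock genes (x) in the 6 control and 6 knockdown male arrays, with dots for arrays and bars for the mean and SD. The groups overlap for each gene, Nr1d1 has means of 9.59 and 9.58, and the Dbp dots of the knockdown group sit within 10.17 to 10.23.

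Clock output factors carry the oscillation to tissue genes, and 4 of the 9 measured had a difference above 0, with a median of -0.01 and 0 with an unadjusted p under 0.05. Dbp, a D-box activator that follows the E-box rhythm, differed in spread more than in level. Controls read 9.76, 9.95, 10.42, 10.03, 10.37 and 10.18, and knockdown arrays 10.20, 10.17, 10.20, 10.19, 10.23 and 10.19. Thus the SD was 0.25 in controls and 0.02 in knockdown arrays, while the difference was 0.08 (SE 0.08) and turned to -0.05 without controls 1 and 2. Spread was larger in controls for 61.1% of all genes, with median SDs of 0.126 and 0.109, and no test of spread was run. Tef (0.06), Hlf (-0.01), Nfil3 (-0.03), Nampt (-0.04), Tsc22d3 (-0.10), Fkbp5 (0.04), Usp2 (0.10) and Pdk4 (-0.08) complete the list.

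Genes that REV-ERBα is known to repress were divided, with 7 of 12 above 0, a median of 0.02 and 0 past the threshold. The list shares Arntl, Clock, Npas2, Cry1 and Nfil3 with the clock lists. Fabp7, the fatty acid binding protein of astrocytes and neural progenitors, read a lowest, median and highest level of 9.97, 10.23 and 10.39 in controls and 10.18, 10.38 and 10.78 in knockdown arrays. Its difference was 0.20 (SE 0.11, 95% interval -0.02 to 0.42, unadjusted p = 0.0677), and knockdown 1 alone stood at 10.78. Ccl2, a chemokine, was the member with the smallest p and lay the other way, at -0.16 (SE 0.07, unadjusted p = 0.0285, limma adjusted p = 0.996), with 0.15 in females. The 9 measured corepressor partners had a median of 0.01, and none of them had an unadjusted p under 0.05.

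Medium spiny neuron genes had differences mostly above 0, and the count depended on which controls were kept. Of 21 measured, 19 had a difference above 0 with a median of 0.085, 0 had an unadjusted p under 0.05, and the largest by p were Bcl11b (0.13, SE 0.07), Tac1 (substance P precursor, 0.11, SE 0.06) and Gpr6 (an orphan receptor of indirect pathway neurons, 0.17, SE 0.10). The list mean was lowest in controls 1 and 6, from 9.95 upwards, and 10.21 to 10.29 in the other 4 controls, against 10.10 to 10.35 in knockdown arrays. Without controls 1 and 6 the count was 7 of 21 and the median -0.015. Those were the lowest controls for this list, so leaving them out lowers the difference by construction. Without controls 1 and 2 the count was 15 of 21 and the median 0.06. Over arrays left out in turn the median was 0.044 to 0.126. Cortical genes were high in control 1 (8.58) and low in control 6 (7.06). With the cortical mean as covariate 20 of 21 lay above 0. In females 11 of 21 did. Dopamine, opioid and cAMP signalling genes had 15 of 20 above 0 (median 0.06), with Rgs2 (0.12), Gnai2 (0.10) and Pde2a (0.11) of smallest p. Without controls 1 and 6, or without controls 1 and 2, the count was 12 of 20, with medians of 0.02 and 0.03, and in females it was 11 of 20.

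Microglial genes had the highest median of the cell type lists, 0.10, with 17 of 19 measured above 0 and 4 higher at an unadjusted p under 0.05, where 2.07% of all genes were. Trem2, the lipid-sensing receptor of microglia, read 7.5, 7.69 and 7.78 (lowest, median, highest) in controls and 7.77, 7.82 and 7.88 in knockdown arrays. All 6 were above the control mean, and the ranges met at 7.77 to 7.78. The difference was 0.15 (SE 0.06, unadjusted p = 0.0234, limma adjusted p = 0.996), and -0.11 in females. Siglech (0.13, SE 0.05), a lectin of microglia, Laptm5 (0.14, SE 0.07), a lysosomal membrane protein, and Fcrls (0.11, SE 0.05, named after its values were seen) were the other 3. Defining markers with smaller differences were Cx3cr1 (0.07), P2ry12 (0.04) and Tmem119 (0.05), all within 1.5 SE. The list mean was 7.53 to 7.73 in controls, lowest in controls 1 and 6, and 7.66 to 7.74 in knockdown arrays. Without controls 1 and 6, whose removal lowers the difference by construction, the median was 0.02 with 15 of 19 above 0. Without controls 1 and 2 it was 0.06 with 13 of 19 above 0. In females 7 of 19 were above 0.

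**Figure D3:**
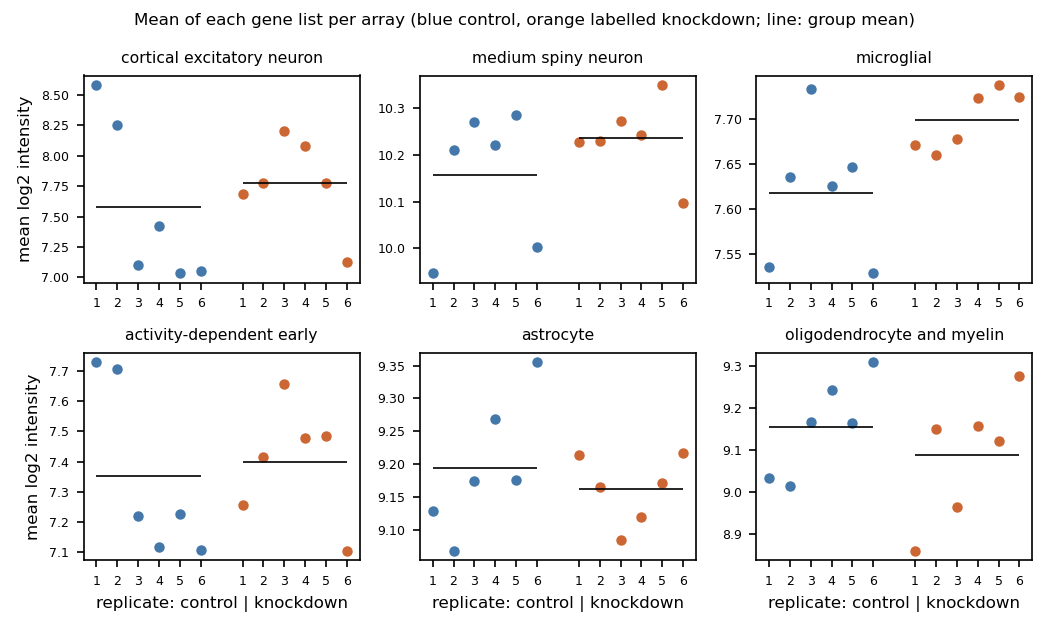
Mean log2 intensity (y) of 6 gene lists in each of the 12 male arrays (x, replicate number within group), blue for control and orange for labelled knockdown, with a line at each group mean. Cortical genes run from 7.03 to 8.58 in controls, while the microglial and medium spiny neuron means are lowest in controls 1 and 6.

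Other neural and glial lists had small medians. Myelin genes had 3 of 14 above 0 and a median of -0.04, with Aspa, the N-acetylaspartate hydrolase of oligodendrocytes, at -0.27 (SE 0.11, unadjusted p = 0.0228). Cortical means were high where myelin means were low in controls 1 and 2, and without those controls 0 of 14 were above 0 and the median was -0.10. With the cortical covariate 6 of 14 myelin genes were above 0, with a median of -0.02. Without knockdown 1, the lowest array for this list, the median was also -0.02. In females 9 of 14 were above 0. Oligodendrocyte precursor genes had 7 of 10 above 0 (median 0.05, or 5 of 10 and -0.01 without controls 1 and 2, and 8 of 10 and 0.09 with the cortical covariate), with C1ql1, a secreted synaptic ligand, at 0.23 (SE 0.07). It read 6.41, 6.70 and 6.89 (lowest, median, highest) in controls and 6.75, 6.92 and 7.11 in knockdown arrays, with 6 of 6 above the control mean. Ependymal genes had 10 of 11 above 0 (median 0.06), led by Foxj1 (0.15, SE 0.07), the regulator of motile cilia. Astrocyte genes had 5 of 13 (median -0.02), endothelial and mural genes 10 of 16 (0.02), meningeal genes 2 of 10 (-0.04), lymphocyte genes 7 of 14 (0.00), interferon response genes 9 of 21 (-0.04), reactive glia and injury genes 9 of 14 (0.01) and septal genes 6 of 12 (0.01). The astrocyte count was 1 of 13 (median -0.09) without controls 1 and 2 and 7 of 13 (0.01) with the cortical covariate. Gzma, a lymphocyte protease gene, stood at 0.15 (SE 0.05), and Gbx1, a homeobox gene in the septal list, at -0.24 (SE 0.08). Both were of low level, reading at most 4.12 for Gzma and 4.67 for Gbx1 in any male array. The lower quartile of the male arrays was 4.5 to 4.56. Whether either signal was above background was not tested. The means of these marker lists differed between the groups by less than the 0.20 of the cortical list, and their part in the differences of the neuronal lists was not tested.

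Signalling lists had medians between -0.05 and 0.04. Activity-dependent early genes had 15 of 25 above 0 (median 0.03), 23 without controls 1 and 2 and 8 with the cortical covariate. Npas4, a neuronal activity gene, read 6.62, 7.30 and 7.41 (lowest, median, highest) in controls and 7.26, 7.34 and 7.77 in knockdown arrays, a difference of 0.28 (SE 0.16). Interneuron genes had 6 of 15 (median -0.05, or -0.18 without controls 1 and 2 and 0.02 with the cortical covariate), with Nos1, which makes nitric oxide in neurons, at 0.15 (SE 0.06) and Calb2 at 0.28 (SE 0.15). Social and anxiety peptide genes had 14 of 26 (median 0.00), and Cartpt, the CART peptide precursor, read 8.55, 8.83 and 9.10 in controls against 8.90, 9.07 and 9.23 in knockdown arrays, a difference of 0.24 (SE 0.10, unadjusted p = 0.0273). Serotonin receptors had 6 of 11 (median 0.02), with Htr1a, an inhibitory serotonin receptor, at -0.27 (SE 0.11), and metabotropic glutamate receptors 3 of 6 (median 0), with Grm8 at -0.27 (SE 0.12). Without controls 1 and 6, Htr1a stood at -0.15 and Grm8 at -0.12. Without controls 1 and 2 they stood at -0.355 and -0.14. The steroid hormone receptor list, which also holds the thyroid hormone receptors Thra and Thrb, had 3 of 8 (median -0.01), with Gper1 at -0.20 (SE 0.09). Endocannabinoid genes had 5 of 9 (0.01, or 2 of 9 and -0.03 with the cortical covariate), with Abhd6 at 0.12 (SE 0.05). GABA receptor subunits had 5 of 12 (-0.02) and ionotropic glutamate receptor subunits 10 of 14 (0.01). Potassium channel genes had 52 of 89 above 0 (median 0.01) and synaptic vesicle genes 13 of 16 (0.04, or 10 of 16 and 0.02 with the cortical covariate). All of these had limma adjusted p of 0.996 or more.

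Metabolic and housekeeping lists had small medians too. Respiratory chain subunits had 57 of 80 above 0 (median 0.03), 5 of them higher and 0 lower at an unadjusted p under 0.05, where the female median was -0.07 with 14 of 80 above 0. Ndufa7, a complex I subunit, stood at 0.20 (SE 0.06) with all 6 arrays above the control mean, and at -0.09 in females. Atp5md, an ATP synthase subunit, stood at 0.14 (SE 0.06) against -0.18. Small nucleolar RNAs had 46 of 78 above 0 (median 0.03), with 5 higher and 3 lower at an unadjusted p under 0.05, and 21 of 78 above 0 in females. Their median was -0.003 without control 6 alone, and 39 of 78 were above 0 without controls 1 and 6. Glycolysis genes had 10 of 17 (0.04, or 0.01 with the cortical covariate), sterol synthesis 6 of 18 (-0.02), endoplasmic reticulum stress 9 of 14 (0.03), p53 response 5 of 11 (0.00) and small RNA processing 5 of 12 (-0.01). The sterol count was 12 of 18 (0.03) without controls 1 and 6 and 11 of 18 (0.02) without controls 1 and 2. With the cortical covariate it was 7 of 18 (-0.04). Y-linked genes, 3 measured, had a median of -0.05. Olfactory and vomeronasal receptors had 610 above and 764 below 0 of 1390 (median -0.01).

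**Figure D4:**
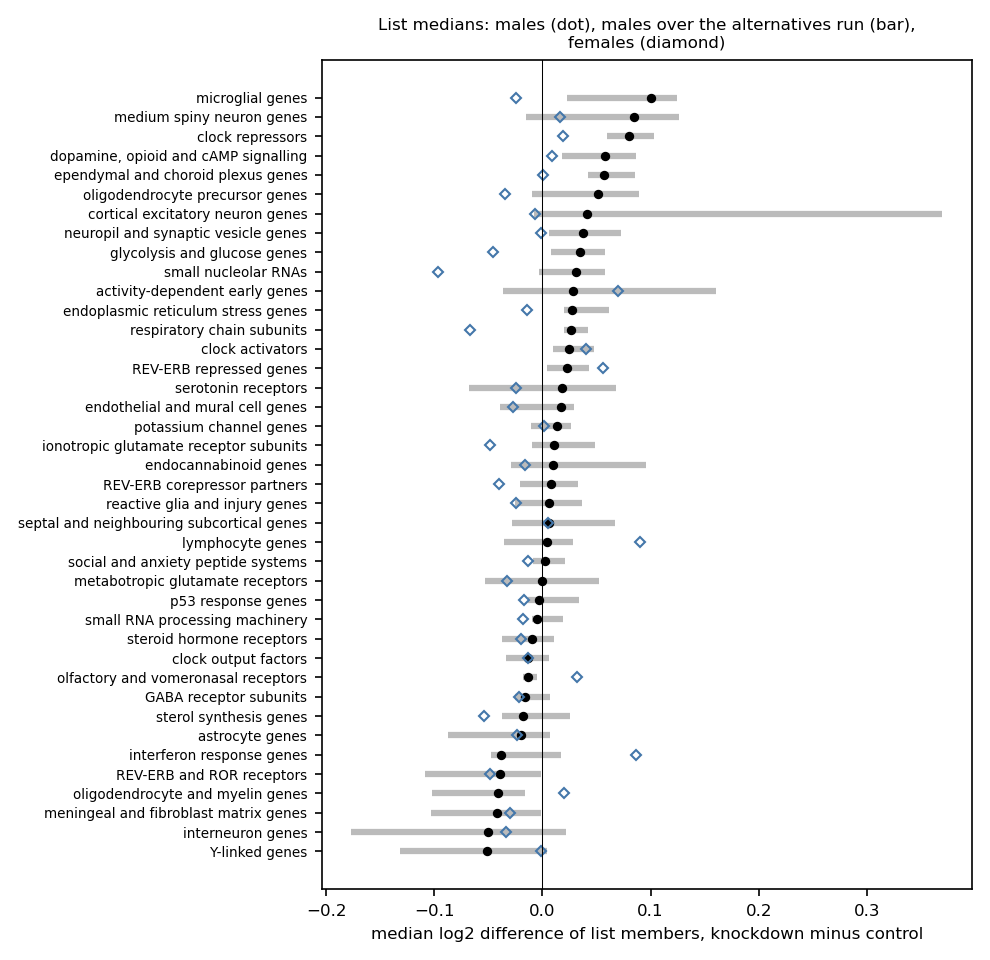
Median log2 difference, knockdown minus control, of the measured members of each list (y, 1 list per line) on the x axis: dots for males, bars for the range over the alternatives run in males, diamonds for females. The male medians lie between -0.05 and 0.10, with microglial genes at 0.10, and the bars of 26 of the 40 lists cross 0.

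The genes with the smallest p were mostly of low level, and none passed the adjusted threshold (adjusted p 0.767 to 0.961). Snord37, a C/D-box small nucleolar RNA, was the lowest by p among named genes. It read 4.41, 4.52, 4.84, 4.94, 4.63 and 4.53 in controls and 4.44, 3.62, 3.91, 3.90, 3.79 and 4.46 in knockdown arrays. Knockdown 1 and 6 lay among the controls and the other 4 lay below all of them. The difference was -0.63 (SE 0.14, 95% interval -0.91 to -0.34, limma adjusted p = 0.767), and -0.02 in females. Snora20, an H/ACA-box small nucleolar RNA, read 5.27, 5.37, 5.71, 5.28, 5.50 and 5.19 in controls and 5.54, 5.78, 5.64, 5.98, 5.92 and 5.77 in knockdown arrays, with overlap only through control 3. Its difference was 0.39 (SE 0.09, a change between 15.0% and 48.3%, limma adjusted p = 0.809) and -0.25 (SE 0.09) in females.

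Among the 10 higher genes of smallest p, which were chosen on these arrays, 4 had ranges that did not overlap. Lage3, a subunit of the KEOPS tRNA modification complex, lay at 5.71 to 5.93 in controls and 5.95 to 6.20 in knockdown arrays, a difference of 0.26 (SE 0.06). Spint1, a serine protease inhibitor, lay at 6.59 to 6.94 and 6.97 to 7.33 (0.32, SE 0.08), Ino80b, a subunit of a chromatin remodeller, at 6.53 to 6.83 and 6.84 to 7.08 (0.25, SE 0.06), and Dennd1c, a Rab exchange factor, at 5.57 to 5.78 and 5.80 to 6.18 (0.31, SE 0.08). Dennd1c alone of these had a female difference of like size, 0.29 (SE 0.09). Slc17a4 (0.31), Cyp2a4 (0.33), Ppan (0.29, with a second probe set at 0.16), Slc15a2 (0.19) and Gm9442 (0.21) complete the list. The lower 10 were all below the median gene's level, 3 of them olfactory or vomeronasal receptors, and 3 had ranges apart: Fshb, the follicle-stimulating hormone beta subunit, 4.66 to 4.96 against 4.31 to 4.62, Actl11 (4.74 to 5.05 against 4.49 to 4.70) and 4930517E11Rik. The others were Olfr1368, Zfp976, Dbil5, Vmn2r28, Vmn1r20 and Gm5925, with differences between -0.36 and -0.22. In females 4 of the 10 higher genes and 3 of the 10 lower ones had the same sign.

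**Figure D5:**
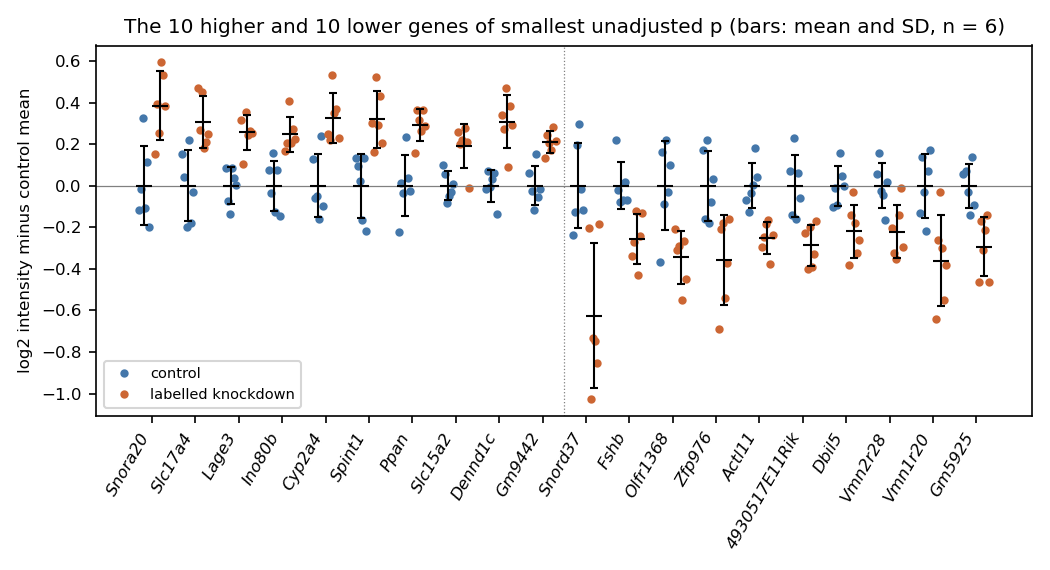
Log2 intensity minus the control mean (y) for the 10 higher and 10 lower genes of smallest unadjusted p (x) in the 12 male arrays, with dots for arrays and bars for the mean and SD. The differences run from -0.63 for Snord37 to 0.39 for Snora20, and dots of both groups overlap for most genes.

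Among genes at or above the median level, the largest differences went to genes with large spread. Slc17a7, Prdm8 (0.80, SE 0.57), Cck (0.68, SE 0.61) and Nr4a2, an orphan nuclear receptor (0.55, SE 0.43), stood at 0.45, 0.38, 0.19 and 0.19 with the cortical covariate. An immunoglobulin kappa variable gene of the Igkv5 family (probe set 17459421) was at 0.90 (SE 0.66). Its knockdown 1 read 11.94 and the others 8.57 to 10.34, beside 8.22 to 9.45 in controls, and 2 other probe sets of the gene gave -0.17 and -0.38. Knockdown 1 also had the highest mean of the interferon (6.10) and meningeal (7.16) lists in its group. The largest lower values were Ceacam2 (-0.32, SE 0.11), Sncg (-0.31, SE 0.15), Mir3070b (-0.31, SE 0.11), Slc22a4 (-0.28, SE 0.10) and Aspa (-0.27).

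Mir3070b is printed with its near copy Mir3070a, which was added after its values were seen, because both hairpin genes stood lower. The mature sequences, from RefSeq (GRCm38.p6), differ between the copies only on the 3p arm outside the seed (bases 2 to 8, capitals).
miR-3070-5p (both): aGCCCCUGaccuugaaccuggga
miR-3070-3p (Mir3070a): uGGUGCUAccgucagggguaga
miR-3070-2-3p (Mir3070b): uGGUGCUAuggucagggguaga
The probe sets measure the hairpin gene, not a mature arm. Mir3070b read 7.52, 7.66, 7.38, 7.59, 7.76 and 7.47 in controls and 7.31, 7.23, 7.11, 7.11, 7.23 and 7.54 in knockdown arrays, where 5 of 6 lay below every control and replicate 6 among them. Mir3070a stood at -0.20 (SE 0.09). In females the values were 0.19 (SE 0.11) and 0.09 (SE 0.09).

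The probe sets with the smallest p had no gene symbol in the annotation. Probe set 17210797 read 3.95 to 4.68 in controls and 3.56 to 3.89 in knockdown arrays, without overlap, a difference of -0.65 (SE 0.10, limma adjusted p = 0.10). In females it stood at 0.28 (SE 0.11), and the male minus female difference of -0.94 (SE 0.15) had a limma adjusted p of 0.114. Of the alternatives run, it was called in limma when control 1 (adjusted p = 0.00156), control 5 (0.032), controls 1 and 6 (0.00858) or controls 1 and 2 (0.00584) were left out, and the adjusted p was 0.794 in a limma fit of the 12 male arrays alone. Probe set 17248664 read 5.32 to 5.90 against 4.19 to 5.22, also without overlap, at -0.88 (SE 0.16, limma adjusted p = 0.191), and at -0.07 (SE 0.16) in females. What they measure is unknown here.

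The female arrays give an independent set of differences for the same genes. Over the named genes the Pearson correlation of the male and female differences was -0.013, and 0.046 among genes at or above the median level, and 49.5% of genes had the same sign. These are descriptions across genes, which are not independent replicates, and the sexes share no array. The difference of the male and female effects was tested as an interaction: 0 of 41345 probe sets (0%) passed an adjusted p under 0.05, and 1150 named genes (5.18%) had an unadjusted p under 0.05. Among named genes the smallest p belonged to Snora20 (male minus female 0.63, SE 0.13, limma adjusted p = 0.376), Snrpd1, a spliceosomal core protein (0.46, SE 0.10, adjusted p = 0.603, with 0.21 in its other probe set), Gm11793 (-0.39), Gm10847 (-0.38) and Znrd1 (0.36), the latter 3 at 0.845. Medians were 5.84 to 5.88 in the male arrays and 6.11 to 6.17 in the female ones, and levels were not compared between the sexes.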

How the data were processed

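Total RNA from micropunched nucleus accumbens was measured on whole-transcript arrays, from 150 ng per sample per the labels' protocols. The deposited table holds log2 intensities for 41345 probe sets and 23 arrays, made by the authors with Transcriptome Analysis Console per the submitters' processing notes. The sources used here name no version, normalization or genome build. The number of arrays limits the precision. Probe sets were named from the platform annotation: 23521 had 1 symbol, 1814 several and 16010 none, and 23328 of the first matched GRCm38.p6 by Entrez number with 0 symbols changed. Each gene is read from its single-symbol probe set of highest mean.

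limma 3.58.1 (R 4.3.3, Python 3.11.15 for sequences and figures) fitted 1 mean per group over all 23 arrays, with 19 residual degrees of freedom. Tests were two-sided, with Benjamini-Hochberg adjustment over all probe sets at 0.05. The script was tested on simulated data. Named are Nr1d1, the clock list members, the 10 genes of smallest p each way, 3 per list by p, the 5 largest differences each way at or above the median level, the 5 of largest spread and the 5 of smallest interaction p. Members and the 40 lists (461 of 505 genes measured) were chosen with earlier results of these data known, and no list was tested. Labels do not say that replicate numbers pair mice. Same-numbered arrays correlated over 0.1 for 1 of 6 numbers, so they were not paired. Alternatives were 9 settings, each male array left out, controls 1 and 6 left out and, chosen after seeing the data, controls 1 and 2 left out. Controls 1 and 6 had the lowest mean correlation with the other male arrays (0.9935 and 0.9934). The labels do not single them out, so that pair is not independent of the measured values.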

Additional observations from a re-analysis of the deposited data

Results flagged for a closer look

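Of 286 groups of 6 arrays checked, over 40 lists and 103 genes, 16 had 1 array far from the other 5 (a gap, as a share of the range, above Dixon's critical value). Chance gives about 1 in 20 groups, and the number flagged is close to that share. The arrays below are therefore listed as a description. Control 1 stood apart for the interferon list (6.26), Bhlhe40 (9.76), Ifit1 (6.97) and Fshb (4.96). Control 2 was low for Gm11793 (5.45), control 3 high for Ceacam2 (7.45), control 4 low for Pdk4 (7.15) and Gm10847 (4.73), and control 6 low for Pde2a (11.09). Among knockdown arrays, replicate 1 was high for the interferon list (6.10) and the meningeal list (7.16), replicate 5 low for Hspb1 (4.91), and replicate 6 high for Gabrb2 (9.81) and low for Slc15a2 (7.59), Slc17a7 (5.37) and Neurod6 (5.49).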

How the results depend on the processing

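The count of called probe sets was 0 to 1 over arrays left out in turn. It was 1 without control 1, without control 5 and without controls 1 and 6, and without controls 1 and 2 (chosen after seeing the data) 2 did. The interaction gave 1 call with array weights, without controls 1 and 6 and without controls 1 and 2, and 0 to 1 over arrays left out. Genes with an unadjusted p under 0.05 numbered 272 higher and 166 lower when only probe sets at or above the median level were kept, 283 and 278 with the replicate block, and 831 and 838 without controls 1 and 2. The replicate block changed no call. The microglial median was 0.0225 without controls 1 and 6. The sign of differences within 1 SE turned in places: Nr1d1 ranged from -0.0483 to 0.0407 over arrays left out (-0.0933 without controls 1 and 2, -0.0808 without controls 1 and 6), Arntl -0.0033 to 0.0733, Arntl2 -0.036 to 0.048, Ncoa1 -0.0093 to 0.0207, Bhlhe40 -0.0257 to 0.0743, Hlf -0.0337 to 0.0063 and Rorb -0.024 to 0.0697. With the cortical covariate Nr1d1 stood at 0.016, Arntl at -0.0044 and Bhlhe40 at -0.0163. Ncoa1 was -0.0025 with quantile normalization and -0.0033 without controls 1 and 6. Without controls 1 and 2, Arntl2 was -0.02, Bhlhe41 -0.0075, Dbp -0.0533, Hlf 0.0108 and Nfil3 0.0042. The cause was not tested.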
